A study of Mus musculus with 13 samples.

Results

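Cell cycle and DNA replication genes were followed as a set of 39 mouse genes in RNA from cells sorted beside tibial implants. The genes were taken by symbol from a list of known proliferation genes, and all 39 were among the 23211 genes counted. The rule that picked them uses no level or difference measured in these libraries, but the genes were chosen with earlier results of these data known.

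The sort took mouse cells negative for lineage markers (Lin-) and positive for the leptin receptor (LEPR+), a marker of marrow stromal cells, and their polyA RNA was sequenced. The 6 bone libraries, labelled Pressfit, came from bone around the implant, and the 7 fibrous libraries, labelled PMMA, came from fibrous tissue around it. The names of bone 2 and bone 4 share a token, as do those of fibrous 2 and fibrous 5, and the labels do not say what it marks. The labels give no strain, genotype, age or sex of the mice and tie no library to an animal, and no untreated group was analysed here. Library names form 2 series, L002 (bone 1 to 4, fibrous 1 to 5) and XY9274 (bone 5 and 6, fibrous 6 and 7). Within L002, the names of bone 3, bone 4 and fibrous 5 hold the token Lin, which the labels do not explain. These 3 names do not mention LepR. The names of bone 2 and of fibrous 2, 3 and 4 hold LepR.plus, and that of bone 1 holds plus. The name of fibrous 1 holds none of these tokens, and all XY9274 names hold Lepr.Pos.

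The p-values below measure the spread between libraries, which may be technical. Library totals ran from 16162321 to 44302166 counts. The libraries differed widely in cell type markers. Lepr itself ran from 0.471 to 808 CPM (normalised CPM, read counts scaled to a common library size with TMM factors) and was at least 5 CPM in 8 libraries (bone 1, 2 and 6, fibrous 2, 3, 4, 6 and 7). Haemoglobin genes took from 0.128% of counts in bone 5 to 35.3% in bone 4. The erythroblast score, the mean log2 CPM of 14 detected erythroid genes such as Klf1 and Gata1, was 6.54 in bone 5 and 8.08 to 9.90 in the other libraries. All 14 were counted in every library, and their summed level ran from 1748 to 27502 CPM in bone and from 5528 to 20573 CPM in fibrous libraries. Bone 5 also had the most leukocyte RNA: 8 pan-leukocyte genes summed to 7378 CPM there and to 105 to 2067 CPM in the other libraries. In RNA from sorted pools, fewer cells of a type and less RNA per cell cannot be told apart.

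A dividing cell copies its DNA in S phase and separates the copies in mitosis. Cyclin E and E2F transcription factors start S phase, the MCM helicase loaded by Cdc6 opens the DNA, PCNA clamps the polymerase to it, and ribonucleotide reductase and thymidylate synthase supply nucleotides. Later, cyclins A and B with Cdk1, the Aurora and Plk1 kinases and the kinetochore proteins carry the cell through mitosis, and the anaphase-promoting complex ends it. In marrow, erythroblasts and neutrophil precursors divide rapidly, whereas most LEPR+ stromal cells are known to divide seldom.

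S-phase genes are classically driven through E2F sites, and mitotic genes through CCAAT boxes and a short element called CHR. Promoter windows of 250 bases before the RefSeq start (GRCm38.p6, the same assembly as mm10) were at hand for 31 of the 39 genes. Ccne2, Tpx2, Mcm4, Foxm1, Gins2, Kif20a, Aurkb and Ccna2 had no entry. The 4 windows below show a pair of helicase genes and a pair of mitotic genes that the results describe. They run from 5′ to 3′ along the gene's strand, and capitals mark CCAAT boxes (CCAAT), CHR elements (TTTGAA or TTCGAA) and E2F sites (TTTCCCGC, TTTGGCGC or TTTCGCGC), read on both strands. Matches to the E2F words can overlap each other. The windows lie at chr8:75109259-75109508 (Mcm5, plus strand), chr1:128359706-128359955 (Mcm6, minus strand), chr9:70421555-70421804 (Ccnb2, minus strand) and chr11:99024190-99024439 (Top2a, minus strand).
Mcm5: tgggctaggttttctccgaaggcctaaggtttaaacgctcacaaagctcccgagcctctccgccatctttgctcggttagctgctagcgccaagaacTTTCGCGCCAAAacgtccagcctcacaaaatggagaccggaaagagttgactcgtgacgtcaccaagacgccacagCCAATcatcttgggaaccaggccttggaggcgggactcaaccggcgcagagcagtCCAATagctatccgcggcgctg
Mcm6: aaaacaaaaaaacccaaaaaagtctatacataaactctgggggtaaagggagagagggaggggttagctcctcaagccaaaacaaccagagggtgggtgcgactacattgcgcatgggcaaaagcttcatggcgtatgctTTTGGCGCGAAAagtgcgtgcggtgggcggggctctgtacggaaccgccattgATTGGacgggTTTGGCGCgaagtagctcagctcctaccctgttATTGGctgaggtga
Ccnb2: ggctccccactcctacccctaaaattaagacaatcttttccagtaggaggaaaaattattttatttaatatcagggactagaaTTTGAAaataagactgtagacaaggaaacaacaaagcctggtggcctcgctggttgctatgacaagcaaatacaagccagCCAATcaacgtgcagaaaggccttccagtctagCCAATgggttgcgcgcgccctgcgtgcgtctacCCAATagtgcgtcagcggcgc
Top2a: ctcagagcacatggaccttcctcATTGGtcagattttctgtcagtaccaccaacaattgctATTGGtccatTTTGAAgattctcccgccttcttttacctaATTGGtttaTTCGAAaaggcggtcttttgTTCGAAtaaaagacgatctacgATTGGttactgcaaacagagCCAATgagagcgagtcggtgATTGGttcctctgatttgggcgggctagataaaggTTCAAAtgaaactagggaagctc

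Of the 4 windows shown, those of Mcm5 and Mcm6 held E2F words and those of Ccnb2 and Top2a did not. Among the 31 genes, the others with an E2F word were Mcm7, Cdc6 and the mitotic kinase gene Cdk1, while the helicase genes Mcm2, Mcm3 and Cdc45 had none. Mcm5 had an overlapping pair of E2F matches starting 153 and 149 bases before the start, and Mcm6 had 3 matches, starting at 110, 106 and 47 bases. For both genes the end of the promoter entry was not found in a transcript of the GENCODE M21 annotation. Their distances therefore rest on the RefSeq start. Ccnb2 had 3 CCAAT boxes, starting 87, 54 and 21 bases before the start, and 1 CHR word. Top2a had 6 CCAAT boxes and 4 CHR words. Over the 31 genes, 25 windows (80.6%) held a CCAAT box against 33.8% of all 32851 windows of the same length in the table. A CHR word was in 11 (35.5%) against 17.1%, and an E2F word in 5 (16.1%) against 1.53%. These are letter matches, not measured binding.

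All 39 genes were detected in every library, and the lowest count of any of them was 130, for Foxm1. Together they took 1.05% to 2.26% of the counts in the bone libraries and 1.26% to 2.39% in the fibrous libraries. Shares and normalised CPM can order libraries differently. The 39 genes took 1.17% of counts in bone 4 and 1.65% in bone 1, but summed to 17718 and 14551 CPM. Orders of libraries given below are by normalised CPM. Per kilobase of exon, Rrm2, the small subunit of ribonucleotide reductase, was the most abundant at a mean of 759 CPM per kb, followed by Ccnb2 at 353, Mcm6 at 255 and Mcm5 at 248. Cenpf, Cenpe, Ttk and Foxm1 were the least abundant, at 3.69, 6.78, 7.15 and 8.52 CPM per kb. Rrm2 ranked between 19 and 111 among all genes by CPM in the libraries.

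Between libraries, the highest value exceeded the lowest by a median of 3.70-fold over the 39 genes, against 6.06-fold over the 9850 tested genes counted in all libraries. The range was narrowest for Plk1, a mitotic kinase, at 1.72-fold and widest for Kif20a, a kinesin of cytokinesis, at 27.7-fold. Fibrous 1 held the highest value for 19 of the genes. Bone 5 held the lowest for 17 and bone 4 for 9.

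**Figure D1:**
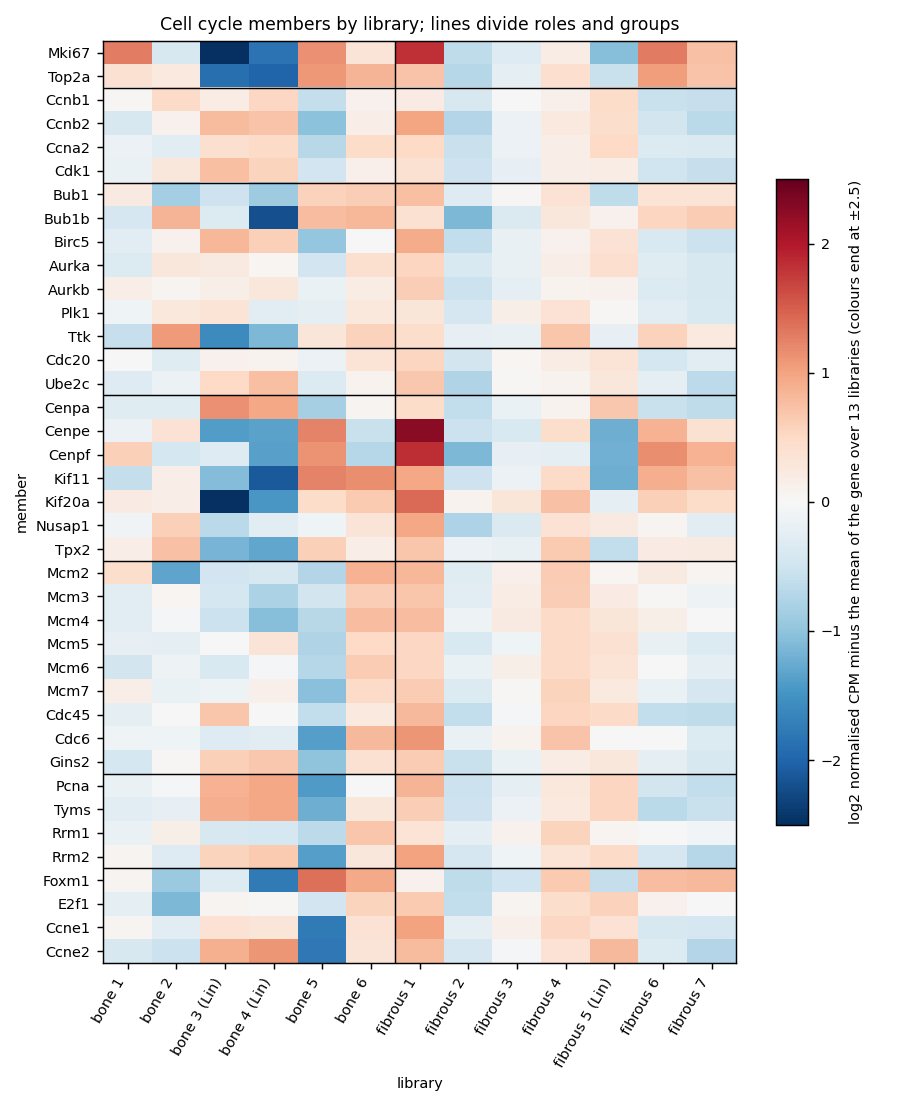
Each row is a gene and each column a library. Colour gives the log2 normalised CPM minus that gene's mean over the 13 libraries, red above and blue below, and lines divide the gene roles and the bone from the fibrous libraries. Fibrous 1 is red in nearly every row. Bone 5 is blue for most replication genes but red for Mki67, Top2a and Foxm1, and the Lin-named libraries bone 3 and bone 4 are blue for Mki67, Top2a and Kif20a but red for Cenpa and Ccne2.

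The question of erythroid content was put by fitting each gene on the erythroblast score over the 13 libraries, with name series as a term. A slope is the log2 change in a gene per unit of score, that is, per 2-fold rise in the mean erythroid level. Of the 39 genes, 13 rose with the score at an adjusted p under 0.05 and none fell, where 3.3% of the 13294 genes tested rose and 1.02% fell. Slopes were above 0 for 37 of the 39 genes, with a median of 0.35 against -0.058 over all genes tested. Most of the 13 act in DNA replication. The score and the genes were measured in the same libraries, so a slope shows that they vary together.

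Among G1/S regulators, Ccne1 and Ccne2, the E cyclins that open S phase, rose and E2f1 and Foxm1 did not pass. Ccne1 was 360, 281, 437, 423, 100.3 and 441 CPM in bone 1 to 6 and 686, 291, 371, 490, 439, 259 and 255 CPM in fibrous 1 to 7. The lowest value was in bone 5, which had the lowest erythroblast score, and the highest in fibrous 1, which had the highest. Its slope was 0.70 (SE 0.074), a 1.62-fold rise per unit, with an adjusted p of 2.44e-04 by edgeR. Ccne2 rose most per unit, with a slope of 0.84 (SE 0.12, adjusted p = 0.00183 by edgeR). E2f1, the factor that drives S-phase genes, had a slope of 0.50 (SE 0.13, adjusted p = 0.0528 by edgeR). Foxm1, a driver of mitotic genes, had a slope of -0.037 (SE 0.21, adjusted p = 0.951 by edgeR).

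The clamp and nucleotide synthesis genes gave 3 calls of 4. Rrm2 was 2022, 1546, 2822, 3052, 738 and 2336 CPM in bone 1 to 6 and 3874, 1438, 1789, 2439, 2671, 1447 and 1170.5 CPM in fibrous 1 to 7. Bone 5 was again the lowest and fibrous 1 the highest, and the Lin-named bone 3, bone 4 and fibrous 5 followed fibrous 1. The slope of Rrm2 was 0.66 (SE 0.080, adjusted p = 5.07e-04 by edgeR). Pcna, the sliding clamp, had a slope of 0.65 (SE 0.11), and Tyms, thymidylate synthase, of 0.62 (SE 0.12). Rrm1, the large subunit of the same reductase, had 0.35 (SE 0.12, adjusted p = 0.142 by edgeR) and did not pass.

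Of the 9 origin licensing and helicase genes, 5 rose, and all 9 slopes were above 0, from 0.34 (Mcm3) to 0.66 (Cdc6). Mcm5, a subunit of the ring-shaped helicase, had a lowest, median and highest level of 566, 898 and 1346 CPM in bone and 733, 883 and 1364 CPM in fibrous libraries. The groups overlapped, and bone 5 was the lowest library. Its slope was 0.47 (SE 0.077, adjusted p = 0.00402 by edgeR). Mcm6 ran from 699 over 970 to 1781 CPM in bone and from 974 over 1266 to 1634 CPM in fibrous libraries, highest in bone 6. Its slope was 0.43 (SE 0.10, adjusted p = 0.0295 by edgeR), the weakest of the calls by p. Mcm7, Cdc6, the loader of the helicase, and Gins2, part of the active helicase, also rose, with slopes of 0.50, 0.66 and 0.57. Mcm2, Mcm3, Mcm4 and Cdc45 did not pass, with slopes of 0.52, 0.34, 0.42 and 0.41.

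The mitotic genes gave fewer calls, 3 in all. Of the mitotic cyclins and Cdk1, Ccnb2 (cyclin B2) and Ccna2 (cyclin A2) rose. Ccnb2 ran from 243 over 544 to 860 CPM in bone and from 296 over 446 to 974 CPM in fibrous libraries. Again bone 5 was the lowest bone library and fibrous 1 the highest of all. Its slope was 0.58 (SE 0.12, adjusted p = 0.0135 by edgeR). Ccna2 ran from 359 over 643 to 799 CPM in bone and from 394 over 522 to 818 CPM in fibrous libraries, with a slope of 0.48 (SE 0.089, adjusted p = 0.00812 by edgeR). Fibrous 5 and fibrous 1 were its highest libraries.

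Of the 7 mitotic kinase and spindle checkpoint genes, 1 rose, Birc5 (survivin), a subunit of the complex that holds Aurora B. Birc5 ran from 239 over 486 to 824 CPM in bone and from 303 over 410 to 886 CPM in fibrous libraries. Its slope was 0.51 (SE 0.11, adjusted p = 0.0202 by edgeR). Bub1, Bub1b, Aurka, Aurkb, Plk1 and Ttk had slopes between 0.029 (Ttk) and 0.34 (Aurka).

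Neither partner of the anaphase-promoting complex passed, with slopes of 0.26 for Cdc20, its activator, and 0.37 for Ube2c, its ubiquitin-conjugating enzyme. Ube2c ran from 340 over 423 to 725 CPM in bone and from 256 over 436 to 686 CPM in fibrous libraries, and the groups overlapped over nearly their whole range. None of the 7 kinetochore and spindle genes passed. Their slopes lay between -0.10 for Tpx2, a spindle assembly factor, and 0.50 for Cenpa, the histone of centromeres (SE 0.16, adjusted p = 0.127 by edgeR). Cenpa ran from 223 over 367 to 868 CPM in bone and from 255 over 350 to 630 CPM in fibrous libraries. Its 3 highest libraries were the Lin-named ones.

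Mki67 and Top2a, the usual markers of dividing cells, did not pass on the score. Mki67, which encodes the Ki-67 antigen, was 277, 87.4, 20.3, 32.02, 253 and 143 CPM in bone 1 to 6 and 405, 74.4, 91.2, 130, 54.9, 281 and 190 CPM in fibrous 1 to 7. Top2a, topoisomerase II alpha, was 339, 309, 70.6, 64.9, 555 and 472 CPM in bone 1 to 6 and 428, 160, 221, 349, 177, 540 and 427 CPM in fibrous 1 to 7. For both genes, bone 3 and bone 4 were the lowest libraries although their erythroblast scores were 9.24 and 9.55, and bone 5, with the lowest score, was high. Slopes were 0.13 (SE 0.39, adjusted p = 0.897 by edgeR) for Mki67 and 0.0068 (SE 0.26, adjusted p = 0.994 by edgeR) for Top2a. The sign of both was not stable: the slopes of Mki67 and Top2a were -0.94 and -0.41 without the 2 libraries farthest from the median score, -0.48 and -0.23 with the neutrophil precursor score as a term, and -0.50 and -0.27 without fibrous 1. The difference between the slopes of 2 genes was not tested.

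**Figure D2:**
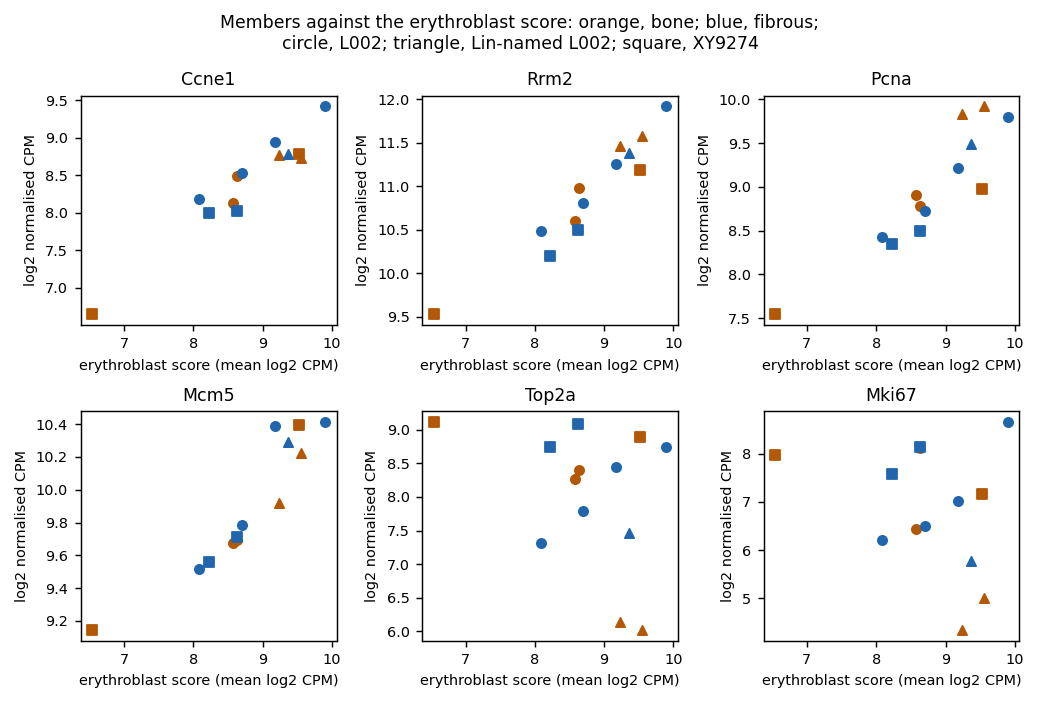
Each panel plots a gene's log2 normalised CPM against the erythroblast score, a mean log2 CPM, with a point for each of the 13 libraries. Ccne1, Rrm2, Pcna and Mcm5 climb with the score from bone 5 at 6.54 to fibrous 1 at 9.90, and Top2a and Mki67 do not, with the Lin-named triangles at the bottom right.

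**Figure D3:**
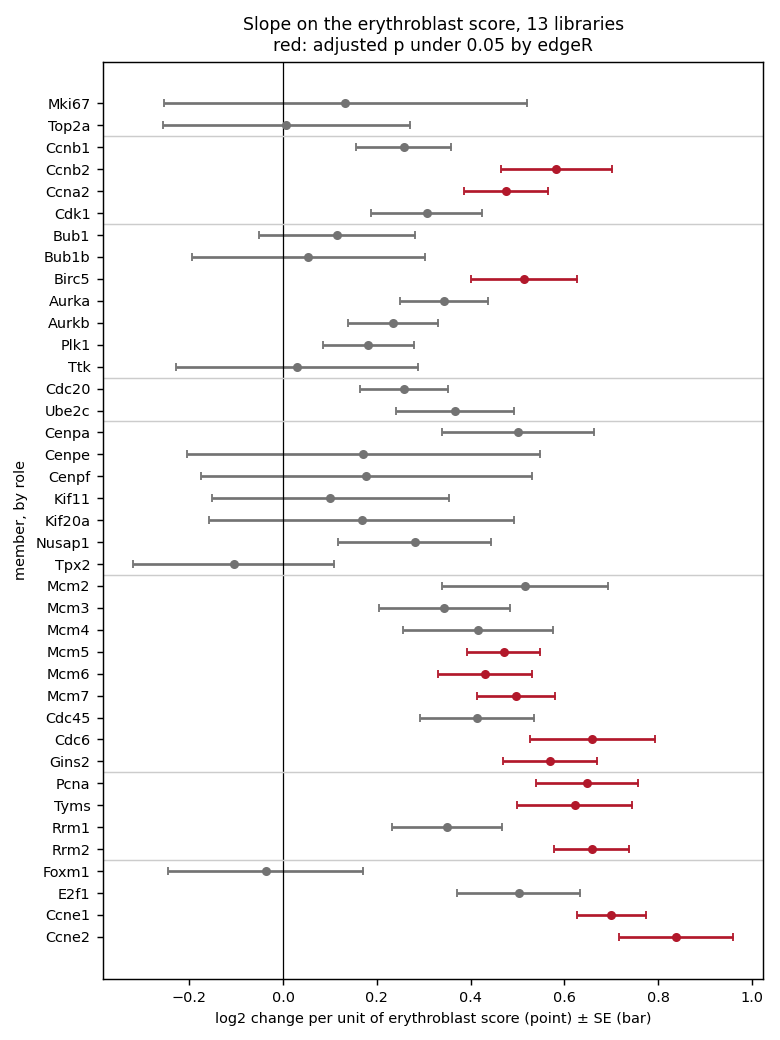
Points give the slope of each of the 39 genes on the erythroblast score, as log2 change per unit, and bars give the SE. Red marks the 13 genes with an adjusted p under 0.05, and grey lines divide the roles. The red points sit mostly in the lower part, among the replication and G1/S genes, between 0.43 and 0.84.

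The calls rested in part on single libraries. Without bone 6, 4 genes passed (Ccne1, Ccne2, Rrm2 and Pcna) against 1.60% of all genes tested. Without bone 5, which stands apart at the low end of the score, 18 passed, 11 of them among the 13, against 5.32%. Without bone 5 and the 3 Lin-named libraries, chosen after seeing the data, 19 passed, 12 of them among the 13, against 3.89%. Without the 2 libraries farthest from the median score, 16 passed, against 6.01% of all genes tested. Within L002 alone 9 passed, against 2.14%. The slope was not fitted in the 4 XY9274 libraries alone.

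Within the 8 libraries with at least 5 CPM of Lepr, no gene passed (smallest adjusted p = 0.112 by edgeR), nor did any of the 14635 genes tested. There, 26 of the 39 had an unadjusted p under 0.05, against 1470 of the 14635 genes tested, and the median slope was 0.62. Rrm2 had a slope of 0.77 and Ccne1 of 0.69, against 0.66 and 0.70 over all 13 libraries.

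Exon length moved with these slopes. The 20 genes with summed exons up to 4217 bases had a median slope of 0.44, with 9 calls, and the 19 longer genes had 0.17, with 4 calls. Across genes, the rank correlation of slope with exon length was -0.38 for the 39 genes and -0.19 over all genes tested. Genes are not independent replicates, and the part of length in the slopes was not tested. With each library's length trend as an offset, an alternative chosen after seeing the data, 11 genes passed, against 3.05% of all genes tested. Birc5, Ccna2, Gins2 and Tyms no longer passed, and Mcm2 and Rrm1 then did.

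Other cell cycle genes, from lists that share no gene with the 39, were set beside them. These lists too were chosen with earlier results of these data known. Of 43 other replication genes, 22 rose with the erythroblast score, with a median slope of 0.43. They included Slbp, which binds histone mRNA (0.65, SE 0.076), Tk1, thymidine kinase (0.63, SE 0.084), and Orc6, a subunit of the origin recognition complex (0.68, SE 0.094). Of 54 other mitosis genes, 4 rose, with a median of 0.25; the 3 with the smallest p were Cenpk (0.66), Cdc25b (0.79) and Cdca3 (0.49). No gene of either list fell, where 3.3% of all genes tested rose and 1.02% fell. The difference between the lists was not tested.

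Promoter letters could be set beside the slopes for 31 genes. An E2F word was in 4 of the 10 that rose and in 1 of the 21 that did not pass. Ccne1, Rrm2, Pcna, Tyms, Ccnb2 and Birc5 rose without an E2F word in their windows. A CCAAT box was in 6 of the 10 and 19 of the 21, and a CHR word in 2 of the 10 and 9 of the 21. The counts are small and were not tested. Mcm5 and Mcm6, printed above, are among the genes with an E2F word that rose. Ccnb2 rose and Top2a did not, though both windows hold CCAAT boxes and CHR words without an E2F word.

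Stromal content was related to the genes within the 8 libraries with at least 5 CPM of Lepr, because the other 5 libraries form a separate set. The marrow stromal score, a mean log2 CPM of 20 genes such as Cxcl12, ran there from 4.08 in bone 1 to 7.90 in fibrous 2. Of the L002 libraries in this set, bone 1 and 2 (4.08 and 4.46) lay below fibrous 4, 3 and 2 (5.65, 6.97 and 7.90). The XY9274 libraries spanned only 4.61 to 4.90. With name series as a term, stromal content and tissue therefore cannot be told apart in most of this range. None of the 39 genes passed, against 0.0137% of the 14635 genes tested, and 4 had an unadjusted p under 0.05 against 9.28%. Slopes were small, from -0.37 (Mki67, SE 0.15) to 0.058 (Mcm6, SE 0.13), with 4 above 0 and a median of -0.082. The smallest adjusted p by edgeR was 0.356, for Top2a at -0.26 (SE 0.074).

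The sign of that median rested on fibrous 2. Without it, 24 of the 39 slopes were above 0 and the median was 0.040. Without the 2 libraries farthest from the median score, 34 were above 0 and the median was 0.19. The genes were readily detected in the most stromal library: in fibrous 2, with 808 CPM of Lepr, Rrm2 stood at 1438 CPM, Mcm6 at 1017 CPM and Mki67 at 74.4 CPM. Its erythroblast score was 8.08, and Klf1, an erythroid transcription factor, stood at 840.5 CPM. Which cells the transcripts came from was not tested.

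Neutrophil precursors are another rapidly dividing marrow population. On their score, the mean log2 CPM of 11 granule and precursor genes such as Ngp, none of the 39 genes passed, against 0.963% of the 13294 tested. The score was 11.2 in bone 5, the library with the lowest erythroblast score, and 1.83 to 8.59 in the others. Slopes lay between -0.33 (Mki67, SE 0.10) and 0.068 (Cenpa, SE 0.074), and the smallest adjusted p by edgeR was 0.208, for Mcm2. An unadjusted p under 0.05 was found for 6 of the genes, against 10.5% of all genes tested. With the erythroblast and neutrophil precursor scores in the same fit, 16 genes passed on the erythroblast score, all 13 among them. Of all genes tested, 8.79% passed on the erythroblast score in that fit.

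The comparison named in the study's design, fibrous tissue against bone, called none of the 39 genes, and 0% of the 13294 genes tested passed (edgeR). None had an unadjusted p under 0.05, against 4.78% of all genes tested, and by DESeq2 none of the 39 passed either. Log2 fold changes ran from -0.40 for Cdk1 (SE 0.20) to 0.77 for Cenpe, a kinetochore motor (SE 0.59), with 22 above 0 and a median of 0.075 against 0.026 over all genes tested. The smallest adjusted p was 0.873. No gene separated the 2 groups of libraries, against 0.0677% of all genes tested.

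Mki67 averaged 136 ± 110 CPM in bone (SD, n = 6) and 175 ± 128 CPM in fibrous libraries (SD, n = 7). The difference of its mean log2(CPM + 1), fibrous minus bone, was 0.61 (2-sided exact permutation test over 1716 splits, p = 0.409). With libraries exchanged only within name series the exact p was 0.370, and without the 3 Lin-named libraries the difference was -0.072 (exact p = 0.905). The log2 fold change of Top2a was 0.27 (SE 0.41), that of Rrm2 -0.072 (SE 0.32), that of Ccnb2 -0.20 (SE 0.31) and that of Mcm4 0.47 (SE 0.28). In the 8 libraries with at least 5 CPM of Lepr, Top2a was at -0.26 and Mcm4 at -0.045, and without the Lin-named libraries Rrm2 was at 0.11 and Ccnb2 at 0.066. A test of whether the difference itself varied between the L002 and XY9274 series called none of the 39 genes and none of the 13294 tested (edgeR).

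**Figure D4:**
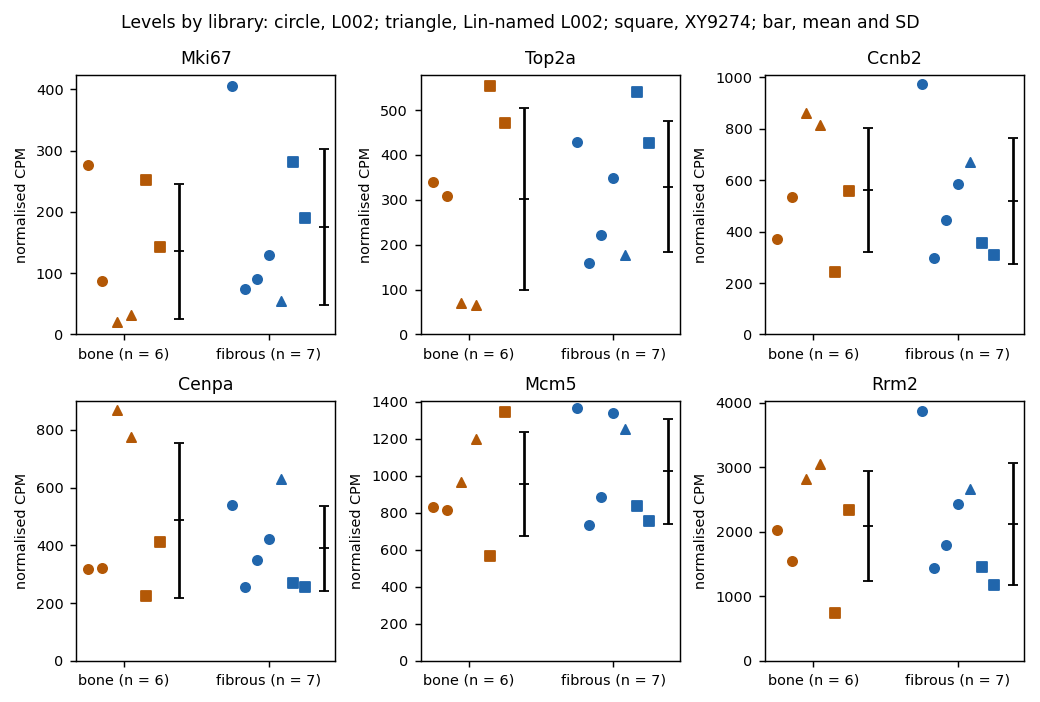
Points give the normalised CPM of 6 genes in each library, bone at the left and fibrous at the right of each panel, and bars give the group mean and SD. The groups overlap for every gene shown. The Lin-named triangles lie at the bottom for Mki67 and near the top for Cenpa and Rrm2. For Top2a they lie at the bottom in bone, and in fibrous tissue the triangle, at 177 CPM, lies above fibrous 2 at 160 CPM.

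The 3 Lin-named libraries were compared with the other 6 libraries of L002, with tissue as a term. None of the 39 passed, against 2.58% of the 13710 genes tested, and the smallest adjusted p by edgeR was 0.0529, for Cenpa. An unadjusted p under 0.05 was found for 11 genes, against 24.3% of all genes tested. The median log2 fold change was 0.18, against -0.16 over all genes tested, and 22 of the 39 values were above 0. By role, the values above 0 were 4 of 4 for the mitotic cyclins and Cdk1, 3 of 4 for the clamp and nucleotide genes, 5 of 9 for the helicase genes and 1 of 7 for the kinetochore and spindle genes.

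For 7 of the 39 genes the 2 sets of libraries did not overlap, against 17.3% of the genes tested, a share near that of the 39. In the Lin-named libraries 2 of them were higher, against 7.49%, and 5 lower, against 9.85%. Mki67 stood at 20.3, 32.02 and 54.9 CPM in bone 3, bone 4 and fibrous 5, and at a lowest, median and highest of 74.4, 111 and 405 CPM in the others. Its log2 fold change was -2.17 (SE 0.69, adjusted p = 0.107 by edgeR). Tpx2, Kif11, Kif20a and Cenpe, which build or move along the spindle, were the other separate genes below, with log2 fold changes of -1.25, -1.33, -1.55 and -1.67. Top2a was 70.6, 64.9 and 177 CPM against 160, 324 and 428 CPM, which overlap, with a log2 fold change of -1.41 (SE 0.41, adjusted p = 0.0846 by edgeR).

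The separate genes above were Cenpa and Ccne2. Cenpa was 868, 776 and 630 CPM in bone 3, bone 4 and fibrous 5 against 257, 335 and 539 CPM as the lowest, median and highest of the others, with a log2 fold change of 1.17 (SE 0.26). Ccne2 was 362, 420 and 343 CPM against 135, 167 and 336 CPM, with a log2 fold change of 1.20 (SE 0.31, adjusted p = 0.0689 by edgeR). For Ccne2, only 343 CPM in fibrous 5 against 336 CPM in fibrous 1 kept the sets apart. Tyms and Pcna had log2 fold changes of 0.95 (SE 0.28) and 0.84 (SE 0.32), and their libraries overlapped.

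In both cases where a Lin-named and another library share a name token, Cenpa was higher in the Lin-named one (776 against 321 CPM in bone, 630 against 257 CPM in fibrous) and Mki67 lower (32.02 against 87.4 CPM and 54.9 against 74.4 CPM). The directions for Cenpa and Mki67 were already set by the separation described above, so these cases add no support for them. Top2a was lower in bone, at 64.9 against 309 CPM, and not in fibrous tissue, at 177 against 160 CPM. Of the 39 genes, 21 were higher in the Lin-named library in both cases and 7 were lower in both.

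The number called depended on the fit. DESeq2 called 9 of the 39, with Cenpa, Tyms and Ccne2 higher and Mki67, Top2a, Cenpe, Kif11, Kif20a and Tpx2 lower. By that tool 22.2% of all genes tested passed, a share near that of the 39. Without fibrous 1, whose name lacks the token but whose Lepr was 0.471 CPM, edgeR called 5, with Cenpa, Pcna, Tyms and Ccne2 higher and Tpx2 lower, against 8.16% of all genes tested there.

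Several measures differ between the Lin-named and the other libraries beside the token. Lepr was 0.621, 0.563 and 0.710 CPM in bone 3, bone 4 and fibrous 5, and haemoglobin genes took 27.9%, 35.3% and 19.97% of their counts, the highest shares of the 13 libraries. The 20 marrow stromal genes summed to 96.6, 66.3 and 139 CPM there, against 185 to 18631 CPM in the other L002 libraries, and Ebf3, Pdgfra, Il7, Angpt1 and Runx2 were at 0 in at least 1 of the 13 libraries. Of other cell type lists, 5 of 9 chondrocyte genes and 4 of 13 collagen matrix genes passed as lower, with median log2 fold changes of -3.45 and -3.89, and 1 of 20 marrow stromal genes passed as lower, with a median of -5.62. Of 9 tested B lineage genes 2 passed as higher (median 3.02), and of 4 haemoglobin genes 1 did (median 2.67). Over all 13710 genes tested, 227 passed as lower and 127 as higher. The chondrocyte genes summed to 1612, 350 and 1891 CPM in bone 3, bone 4 and fibrous 5 against 8133 to 40337 CPM in the other L002 libraries, and Matn1 was at 0 in at least 1 of the 13 libraries.

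Longer exons went with lower values. Across genes, the rank correlation of the log2 fold change with exon length was -0.54 for the 39 genes, -0.56 for 97 other replication and mitosis genes and -0.31 over all genes tested. The 20 genes with exons up to 4217 bases had a median of 0.45 on the log2 scale and 17 values above 0, and the 19 longer genes had -0.49 and 5 values above 0. Of the longest, Cenpf with 15433 bases of exon had -1.17 (SE 0.74) and Rrm1 with 11012 had -0.21 (SE 0.20). Mki67 with 10061 had -2.17, Top2a with 9013 had -1.41 and Cenpe with 8620 had -1.67. These lengths join the exons of all annotated transcripts of a gene, so they can exceed the length of its main mRNA. With the length trend of each library as an offset, 1 gene passed, Cenpa, against 3.76% of all genes tested. The parts of length and of stromal, chondrocyte, B lineage and erythroid content in these differences were not tested.

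**Figure D5:**
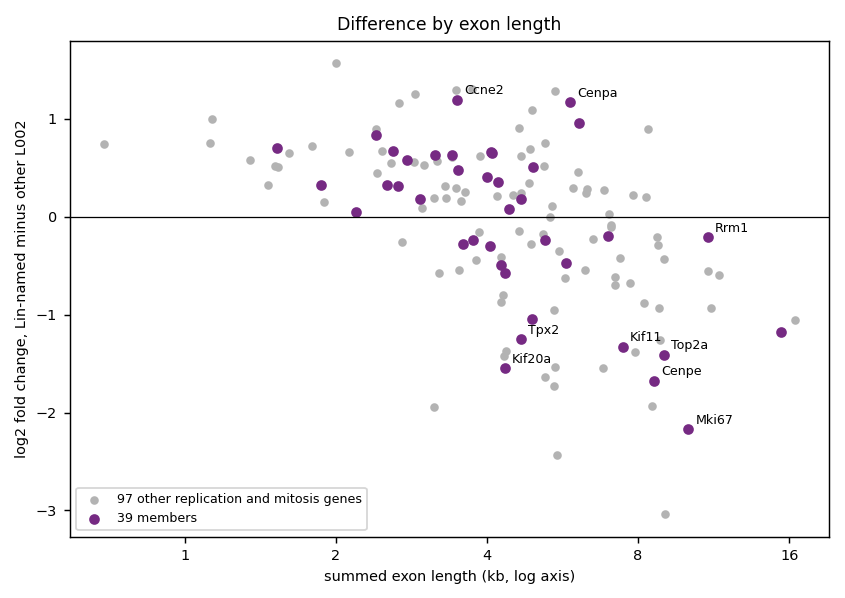
Points give the log2 fold change of the Lin-named over the other L002 libraries against summed exon length in kb on a log axis, for the 39 genes (purple) and 97 other replication and mitosis genes (grey). Points fall from above 0 at short lengths to below 0 at long lengths, with Mki67 at -2.17 and Cenpa at 1.17 among the labelled genes.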

How the data were processed

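PolyA RNA of 13 libraries from sorted cells was sequenced on an Illumina instrument after TruSeq preparation, per the labels' protocols. The authors deposited 1 table of raw read counts per Ensembl gene for all libraries, and its whole numbers sum to a different total in each. The submitters' processing notes name edgeR and the builds mm10 and hg38 without a role. For the aligner, counter, annotation and strand setting, nothing was given in the sources used here. Without a known strand setting, reads of overlapping genes cannot be told apart. All columns were mapped through the library names in the labels, and no 2 columns were identical. Gene symbols, coordinates and summed exon lengths came from GENCODE M21 (mm10) by gene ID. An exon length covers every base that is exon in any annotated transcript of the gene.

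From the deposited counts, library factors were set by TMM, genes were kept by filterByExpr (minimum count 10), and edgeR 4.0.16 quasi-likelihood fits with robust dispersion were run in R 4.3.3 over all genes. Adjusted p-values are Benjamini-Hochberg over all genes tested, with a threshold of 0.05, and SE is the absolute log2 fold change over the root of F. The comparisons were fibrous against bone (13 libraries, name series as a term), Lin-named against other L002 libraries (9 libraries, tissue as a term), and slopes on the erythroblast, neutrophil precursor and marrow stromal scores (name series as a term; the last within 8 libraries). Scores are means of log2 CPM with a prior count of 2. The exact permutation test of Mki67 used log2(CPM + 1). DESeq2 1.42.0, RLE factors, filters, left-out libraries, added terms and a length offset (lowess over exon length, span 0.3) were alternatives. The fits were also run on simulated counts, with planted changes larger than most reported here and with a capped dispersion. That run does not bear on effects of the size reported here.

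The 39 genes and all gene lists were chosen with earlier results of these data known. Genes named with values were Mki67, Top2a and, in each role, the member with the highest mean CPM per kb and the one with the smallest p on the erythroblast score; all 39 are accounted for by ranges and counts, and other members named for a separation, a changed call or an end of a range were chosen after their values were seen. From lists of other cell cycle genes, up to 3 with the smallest p were named. Replicate numbers follow accession order and only name a library.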

Additional observations from a re-analysis of the deposited data

Results flagged for a closer look

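Cenpe, a kinetochore motor gene, stood at 212 CPM in fibrous 1, far above the other 6 fibrous libraries, which ran from 18.9 to 81.2 CPM. It was the only value set apart in this way among 78 groups of values tested (39 genes in bone and in fibrous libraries), of which chance flags about 1 in 20. Fibrous 1 also held the highest value of 19 of the 39 genes and the highest erythroblast score, 9.90. Without fibrous 1 the log2 fold change of Cenpe, fibrous minus bone, was 0.043 in place of 0.77.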

How the results depend on the processing

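Fibrous against bone, none of the 39 genes was called under any alternative run, although DESeq2 called 169 of all genes and edgeR none. The exact permutation difference of Mki67 was -0.072 without the Lin-named libraries and 0.18 to 0.92 with each library left out in turn. Of single genes in that comparison, leaving out each library in turn gave -0.12 to 1.16 for Mki67 and -0.25 to 0.19 for Rrm2. In the Lepr-expressing libraries alone Mki67, Top2a and Mcm4 were at -0.39, -0.26 and -0.045, within XY9274 Top2a, Mcm4 and Cenpe at -0.15, -0.21 and -0.015, and with the length offset Top2a at -0.031. Without the Lin-named libraries Top2a, Rrm2 and Ccnb2 were at -0.15, 0.11 and 0.066, and Rrm2 was at 0.057 with a name factor of 3 levels. Lin-named against other L002 libraries, calls numbered 9 by DESeq2 (3039 of all genes, or 22.2%, against 354 by edgeR). They numbered 2 with a minimum count of 50 (6.11% of all genes tested), 4 without the tissue term (8.76%) and 1 with the length offset (3.76%). With each library left out they numbered 0 to 5, with 5 without fibrous 1 (8.16%). With the erythroblast score as a term, Mcm6 was at -0.060 and Ccne1 at -0.11. On the erythroblast score, calls numbered 0 in the Lepr-expressing libraries and 4 to 18 with each library left out. The 4 were without bone 6, against 1.60% of all genes tested, and the 18 without bone 5, against 5.32%. Slopes of Mki67 and Top2a changed sign: to -0.94 and -0.41 without the 2 libraries farthest from the median score, -0.48 and -0.23 with the neutrophil precursor score and -0.26 and -0.17 on the log2 haemoglobin share, and with each library left out they ran from -0.50 to 0.38 and -0.27 to 0.097. Top2a was also at -0.081 with RLE factors, -0.033 with a minimum count of 50 and -0.049 with tissue as a term. The cause was not tested. On the neutrophil precursor and marrow stromal scores none of the 39 genes was called under any alternative run. Of all genes tested, at most 1.63% and 0.0410% passed on these 2 scores. Replicate numbers follow accession order and pair nothing. With the name token as a block over the 4 libraries that share one, chosen after seeing the data, edgeR called 0 of the 39 Lin-named against other (smallest adjusted p = 0.0827), and 16 had an unadjusted p under 0.05, against 17.5% of all genes tested. Whether the token pairs libraries is not known. The lowest count of any of the 39 genes was 130, so depth did not limit detection.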

Other observations

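Genes that hold cells in G1 or carry them through it were also fitted on the erythroblast score. Of 9 G1 cyclins and kinases, 1 rose, where 3.3% of all genes tested rose. It was Ccnd3, which encodes cyclin D3 (slope 0.49, SE 0.092, adjusted p = 0.00809 by edgeR). The median slope of the list was -0.15. Ccnd3 ran from 699 CPM in bone 5 to 1804 CPM in bone 6. Cdk2 and Cdk4, the kinase partners of the E and D cyclins, had slopes of 0.34 (SE 0.090) and 0.28 (SE 0.089) and did not pass.

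None of the 16 tested genes among the CDK inhibitors and arrest genes passed on that score, with a median slope of -0.14. Cdkn1a, which encodes the inhibitor p21, had a slope of -1.02 (SE 0.37, adjusted p = 0.174 by edgeR). It was 14.3, 4.88 and 38.8 CPM in bone 3, bone 4 and fibrous 5 and 53.7 to 159 CPM in the other L002 libraries. The 2 sets therefore did not overlap (log2 fold change -2.29, SE 0.61, adjusted p = 0.0703 by edgeR). Of all genes tested, 9.85% were lower in the Lin-named libraries without overlap. Cdkn1b, which encodes the inhibitor p27, went the other way, at 35.8, 29.1 and 24.3 CPM in bone 3, bone 4 and fibrous 5 (log2 fold change 2.74, SE 0.82, adjusted p = 0.0905 by edgeR), and its sets overlapped because fibrous 1 held 26.8 CPM. Among other mitosis genes, Anln, which encodes the cytokinesis protein anillin, was lower in the Lin-named libraries (log2 fold change -3.04, SE 0.53, adjusted p = 0.0430 by edgeR). It was the only call among the 54 in that list, against 2.58% of all genes tested.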
